A study of Mus musculus with 2 samples.

Results

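The genes described here are 10 regulators of oxidative metabolism, Ppargc1a, Ppargc1b, Esrra, Esrrb, Esrrg, Ppara, Ppard, Nrf1, Tfam and Gabpa, of 21911 protein-coding genes in the annotation. They were chosen by name, and all 10 were found in it. Around them DNase I hypersensitive chromatin was read in the mouse gastrocnemius, the fast-twitch calf muscle. Both libraries came from female B6CASTF1/J mice, F1 hybrids of a C57BL/6J and CAST cross, at 14 days of age, with no treatment, and formed 1 group of 2 biological replicates. Each biosample label names 3 females, so a library may hold pooled animals, and both libraries carry the same donor record. With 1 group there is no contrast and no test between conditions, and the values below are descriptions of these 2 libraries beside the same measure over all genes or all sites. The tissue is a mixture of cell types, so more open cells and more cutting per cell cannot be told apart.

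The PGC-1 coactivators, encoded by Ppargc1a and Ppargc1b, bind no DNA sequence themselves. They dock on nuclear receptors, among them the estrogen-related receptors (Esrra, Esrrb, Esrrg) and the fatty acid-sensing receptors PPARα (Ppara) and PPARδ (Ppard), and on NRF1. In skeletal muscle this circuit is known to switch on genes of fatty acid oxidation and the respiratory chain. Nrf1 and Gabpa, the DNA-binding subunit of the GABP complex also called NRF-2, drive nuclear genes of the mitochondrion, and one of them is Tfam, whose protein coats and transcribes mitochondrial DNA.

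DNase I cuts DNA that is not covered by nucleosomes, and a peak marks a stretch with many cuts. The signal is the authors' value per peak, without a stated scale. A site is a merged stretch with a peak of the strict list in both libraries. A promoter site has its midpoint within 1 kb of a transcript start, and a distal site is farther from every protein-coding start but nearest to the gene named, within 50 kb. A footprint is a short protected stretch inside a site, called by the authors at a false discovery rate of 0.01, and a shared footprint is the stretch of bases that footprints of both libraries cover. A motif was counted for a site if an exact match lay in the 300 bp around its midpoint. Such a match can lie outside the site itself. All coordinates are mm10, and sequences are from the RefSeq GRCm38.p6 genome.

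The 10 genes had promoters at both ends of the range. Esrra had one of the strongest promoter sites of the genome and Ppard a strong one, while the promoters of Ppargc1a, Esrrb and Esrrg were barely open. The sequences of 4 strong or intermediate promoters and of the weak Ppargc1a promoter are shown first, to set the letters of both kinds side by side. Each is the part of the strongest promoter site that lies upstream of the gene's main transcript start in GENCODE vM21, read 5′ to 3′ on the gene's strand. For Esrra, Ppard, Ppara and Nrf1 capitals mark shared footprints. For Ppargc1a, which had no shared footprint, they mark the cAMP response element, a sequence bound by CREB.
Esrra: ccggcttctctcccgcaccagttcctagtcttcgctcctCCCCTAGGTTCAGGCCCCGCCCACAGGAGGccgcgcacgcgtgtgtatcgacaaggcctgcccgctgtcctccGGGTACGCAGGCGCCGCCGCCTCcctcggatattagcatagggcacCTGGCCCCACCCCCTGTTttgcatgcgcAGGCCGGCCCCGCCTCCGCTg
Ppard: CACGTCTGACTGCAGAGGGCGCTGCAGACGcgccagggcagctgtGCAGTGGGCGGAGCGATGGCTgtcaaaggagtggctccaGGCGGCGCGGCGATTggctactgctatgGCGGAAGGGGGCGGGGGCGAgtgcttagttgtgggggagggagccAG
Ppara: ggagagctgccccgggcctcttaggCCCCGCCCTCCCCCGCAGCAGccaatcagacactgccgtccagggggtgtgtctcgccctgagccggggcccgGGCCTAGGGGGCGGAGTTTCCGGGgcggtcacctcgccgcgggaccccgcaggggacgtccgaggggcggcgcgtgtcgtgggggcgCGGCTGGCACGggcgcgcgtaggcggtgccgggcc
Nrf1: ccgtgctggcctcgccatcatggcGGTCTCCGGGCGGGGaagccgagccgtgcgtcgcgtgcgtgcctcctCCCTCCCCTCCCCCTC
Ppargc1a: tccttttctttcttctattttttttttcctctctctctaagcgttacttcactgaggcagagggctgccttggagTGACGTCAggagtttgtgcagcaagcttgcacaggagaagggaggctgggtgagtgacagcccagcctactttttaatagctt

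The Esrra stretch (chr19:6921814-6922020, minus strand) held 4 shared footprints over 44.0% of its bases. They cover GC-rich letters, and the NRF1 core GCATGCGC at bases 179 to 186, counted from the 5′ end, lies between the last 2 of them and in no footprint. The Ppard stretch (chr17:28232541-28232699, plus strand) was covered by shared footprints over 55.3% of its bases, including the SP/KLF box GGGGCGGG at bases 120 to 127. In the Ppara stretch (chr15:85735301-85735520, plus strand) 25.5% of bases lay in shared footprints, and in the Nrf1 stretch (chr6:30047901-30047987, plus strand) 35.6%. These 4 stretches were 68.6% to 78.6% G and C. The Ppargc1a stretch (chr5:51553923-51554080, minus strand) was 47.5% G and C and held 2 CpG steps in 158 bases, against 20 in the 207 bases of Esrra.

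Every one of the 10 genes had a shared promoter site, where 63.7% of all protein-coding genes had one. The median of their strongest promoter signals was 10.2 in replicate 1 and 8.68 in replicate 2, beside medians of 7.96 and 7.19 over all genes with a shared promoter site. Of the 10, 6 lay above the median of those open promoters and 4 below it.

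**Figure D1:**
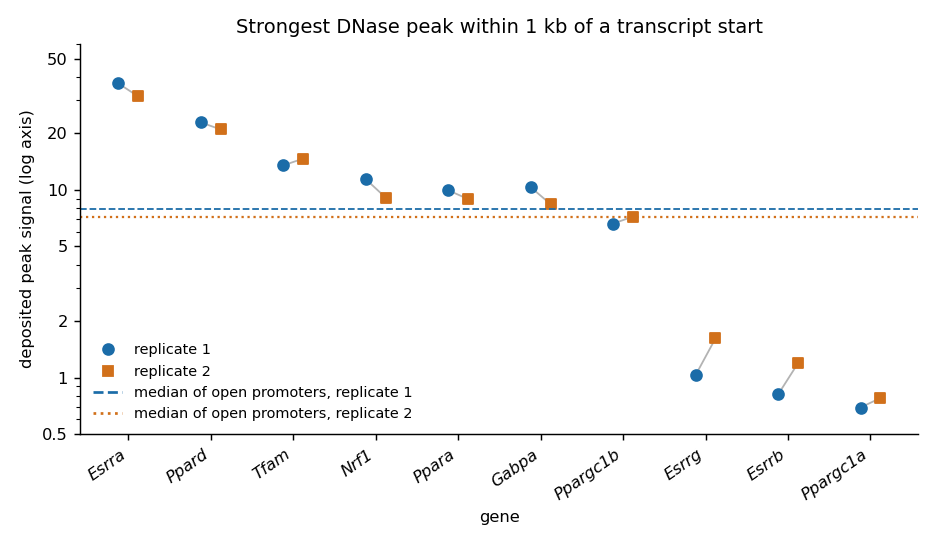
Deposited signal of the strongest strict peak within 1 kb of any transcript start (vertical log axis) for each gene (horizontal axis, ordered by the mean), with replicate 1 as circles, replicate 2 as squares, and the medians over all open promoters as broken lines. Esrra stands at 37.0 and 31.5, and Esrrg, Esrrb and Ppargc1a lie far below the medians of 7.96 and 7.19 in both libraries.

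The coactivator genes come first. Ppargc1a, the exercise- and cold-induced coactivator gene, had the weakest promoter of the 10 by GENCODE starts, at 0.692 and 0.778 in replicates 1 and 2. Only 1.74% of open promoters were weaker. Its site, chr5:51553727-51554080, covers the proximal group of starts, and its midpoint is 13 bp upstream of the nearest of them. Replicate 1 had 1 footprint there and replicate 2 had 3, and none overlapped between them. The cAMP response element TGACGTCA, which 2.35% of all promoter sites hold, lay in no footprint of either library. Over all promoter sites 82.5% of matches to it overlapped a shared footprint. That share covers promoters of every strength, and of promoter sites with a mean signal under 1, like this one, only 41.7% had any shared footprint. Nothing is therefore read from the missing overlap.

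Ppargc1a also starts from an alternative first exon 13.8 kb farther upstream. No strict peak lay within 1 kb of that start in either library. In the permissive list replicate 1 had a peak with a signal of 0.346 and replicate 2 had none, and the lowest false discovery rate of the cut rate in the window was 0.0383 in replicate 1 and 0.0459 in replicate 2, just under the limit of 0.05 at which values are listed.

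The 3 strongest distal sites of Ppargc1a were stronger than its promoter. The strongest, chr5:51595681-51595940, is intergenic, 28.1 kb upstream of the upstream start, at 4.06 and 2.86 in replicates 1 and 2. The next, chr5:51552521-51552780, is in an intron, 1220 bp downstream of the nearest proximal start and so just outside the promoter window, with 2.46 and 2.12. The third, in an intron 19.2 kb downstream of the nearest start, had 1.58 and 1.11. Each of the 3 exceeded the promoter signal by GENCODE starts in both libraries. The site at 1220 bp is within 1 kb of starts that RefSeq alone lists, and by those it would be a promoter site. The 5 distal sites compare with a median of 0 per protein-coding gene, and 90.8% of genes had fewer. The 2 strongest are shown on the gene's strand with shared footprints in capitals, because each holds an E-box, the hexamer family that myogenic factors and their relatives bind, at the edge of a footprint.
Upstream site: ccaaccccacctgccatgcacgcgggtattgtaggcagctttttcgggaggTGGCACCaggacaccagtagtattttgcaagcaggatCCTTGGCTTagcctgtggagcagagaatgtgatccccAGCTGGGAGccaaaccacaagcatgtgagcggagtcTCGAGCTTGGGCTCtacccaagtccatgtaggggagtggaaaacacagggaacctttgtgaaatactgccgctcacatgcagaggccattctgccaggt
Intron site: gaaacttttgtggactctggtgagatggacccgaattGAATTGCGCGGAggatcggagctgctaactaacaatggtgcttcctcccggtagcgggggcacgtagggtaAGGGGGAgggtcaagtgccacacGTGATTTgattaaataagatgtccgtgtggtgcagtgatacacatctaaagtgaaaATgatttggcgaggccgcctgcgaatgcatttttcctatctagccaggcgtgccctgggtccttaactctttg

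In the upstream site the MyoD-type E-box CAGCTG stands at bases 125 to 130, with 5 of its 6 bases in a shared footprint. In the intron site the general E-box CACGTG stands at bases 129 to 134, with 3 of its 6 bases in one. Both sites had 4 shared footprints. An E-box of the first kind is common in these libraries, since 34.7% of all distal sites hold one.

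Ppargc1b, whose protein is the close relative of PGC-1α, had an intermediate promoter. The site at its start, chr18:61400361-61400560, reached 6.62 in replicate 1 and 7.21 in replicate 2, above 46.4% of open promoters. This exceeded the Ppargc1a promoter in both libraries by far more than either gene's gap between libraries. It held 4 shared footprints, and one of them covers an SP/KLF box. A further promoter site 769 bp downstream had 2.38 and 3.06 and no shared footprint.

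Ppargc1b had 11 distal sites, more than 98.5% of genes. Of these, 9 are in its introns. The 3 strongest were at 1399 bp downstream (5.88 in replicate 1 and 4.85 in replicate 2), at 2409 bp (4.31 and 4.51) and at 5439 bp (4.43 and 3.96). Its introns also hold Mir378a, a microRNA gene, and the site at 2409 bp lies 91 bp from its start. Sites at 1749 bp (2.46 and 1.99) and 3250 bp (1.05 and 1.38) are within 1 kb of it too. When the starts of all annotated genes were used for the assignment, in place of protein-coding ones, none of the 11 sites remained with Ppargc1b.

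The receptor genes of the ERR family differed most among themselves. Esrra, the orphan receptor through which PGC-1 proteins act on respiratory genes, had the strongest promoter of the 10, with 37.0 in replicate 1 and 31.5 in replicate 2. Of open promoters 99.7% were weaker, and 37 genes had a stronger one. The site, chr19:6921801-6922020, has its midpoint 98 bp upstream of the main start and also lies within 1 kb of a further start downstream. A second promoter site in an intron, 567 bp downstream of that further start, had 1.67 and 1.43.

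Esrra had no distal site, the only one of the 10 genes without any, while 49.2% of protein-coding genes had at least 1. The gene is 10.8 kb long in a gene-dense stretch, and only 4.97 kb of sequence beyond the promoter windows was nearer to its starts than to another gene's. Over all protein-coding genes there were 2.62 distal sites per 100 kb of such sequence. Neither the ERR element TNAAGGTCA nor the direct repeat bound by PPARs (AGGNCANAGGNCA) had an exact match in any of the 19 promoter sites of the 10 genes. These are rare letters in promoter sites at large, where 0.545% and 0.266% hold them.

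Esrrb, known best from pluripotent cells and the inner ear, had a promoter signal of 0.813 in replicate 1 and 1.19 in replicate 2, above 4.13% of open promoters. Its other 4 groups of starts had no shared site. Near 2 of them, which lie within 1 kb of the same peak, replicate 1 had a strict peak of 0.650 and replicate 2 only a permissive one of 0.598. Yet Esrrb had 7 distal sites, more than 95.3% of genes, and 6 of them are in its introns. The strongest, chr12:86498861-86499080, reached 4.87 and 3.32 in replicates 1 and 2. The next reached 3.96 and 2.74, and the third 3.49 and 3.19. All 3 exceeded the promoter by GENCODE starts in both libraries. The site with 3.96 and 2.74 is within 1 kb of a start that RefSeq alone lists, and by that it would be a promoter site. The strongest is shown on the gene's strand with its 4 shared footprints in capitals.
Esrrb intron site: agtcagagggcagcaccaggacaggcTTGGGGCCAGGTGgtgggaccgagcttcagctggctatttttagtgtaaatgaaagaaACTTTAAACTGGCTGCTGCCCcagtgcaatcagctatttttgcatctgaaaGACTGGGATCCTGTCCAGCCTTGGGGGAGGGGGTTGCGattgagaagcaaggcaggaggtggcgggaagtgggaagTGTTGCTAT

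In it a MyoD-type E-box (bases 54 to 59) and a MEF2 element (bases 61 to 70), both motifs of muscle enhancers, stand 1 base apart, and no shared footprint covers a base of either. The footprints lie to both sides of the pair. The first of them ends in CAGGTG, another hexamer of the E-box family, which was not among the motifs sought.

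Esrrg, the receptor of oxidative fibres and the heart, also had a weak promoter. The site at the internal start, chr1:187997641-187997840, had 1.03 in replicate 1 and 1.62 in replicate 2, above 7.74% of open promoters, with no shared footprint. Its signal ratio between libraries, centred as described below, lay farthest from 0 among the sites of the 10 genes. The 3 groups of starts at the 5′ end of this 606 kb gene had a strict peak of 0.931 in replicate 2 and a permissive one of 0.714 in replicate 1. Esrrg had 3 distal sites, with 1.85 and 1.42, 1.02 and 1.20, and 0.756 and 0.804 in replicates 1 and 2. The last is 116 bp from the start of the antisense gene Gm36388, and also within 1 kb of Esrrg starts that RefSeq alone lists. The ranges of Esrrg and Esrrb promoters overlapped, and that of Ppargc1a lay below both.

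The PPAR genes were more open. Ppard, the PPAR that predominates in skeletal muscle, had 22.9 in replicate 1 and 21.02 in replicate 2 at chr17:28232541-28232760, above 94.9% of open promoters. Further promoter sites had 2.27 and 1.65 675 bp downstream of a retained-intron transcript's start near the 3′ end, and 1.62 and 1.53 in an intron near the main start. At the remaining 2 groups of starts, in the middle of the gene, replicate 1 had a permissive peak of 1.15 and replicate 2 none.

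The strongest distal site of all 10 genes was also that of Ppard. It lies 6.45 kb upstream at chr17:28226161-28226340, in a coding exon of Def6, a gene for a guanine nucleotide exchange factor of lymphocytes, and had 11.98 in replicate 1 and 11.1 in replicate 2. This is more than the median open promoter. The start of the antisense gene AC126937.1 is nearer, 2084 bp away, and with the starts of all annotated genes 5 of the 6 distal sites remained with Ppard, without this one. The site is shown on the plus strand with its 4 shared footprints in capitals.
Ppard upstream site: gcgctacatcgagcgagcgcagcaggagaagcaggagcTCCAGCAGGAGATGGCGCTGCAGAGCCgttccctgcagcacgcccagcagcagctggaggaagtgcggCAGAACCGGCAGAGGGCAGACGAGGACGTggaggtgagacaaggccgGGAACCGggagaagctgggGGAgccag

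The other 5 distal sites of Ppard are in its own introns. The 2 strongest of them had 4.44 and 2.98 at 8.10 kb downstream and 3.74 and 2.77 at 3.65 kb downstream of the nearest start.

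Ppara, the PPAR of liver and of fasting, had an intermediate promoter with 9.96 in replicate 1 and 8.95 in replicate 2, above 59.9% of open promoters. A single site, chr15:85735301-85735520, lies within 1 kb of 3 of its 4 groups of starts. The most internal start, of a non-coding transcript, had no peak in any list.

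Ppara had the most distal sites of the 10 genes, 12, more than 98.9% of all genes. All but 1 of them, 11, are upstream of the gene, from 18.8 kb to 47.8 kb away, in DNA without protein-coding genes. This stretch holds the let-7 microRNA genes Mirlet7c-2 and Mirlet7b and the non-coding gene Lncppara, inside which 6 of the sites lie. The strongest were 24.6 kb upstream (5.99 in replicate 1 and 5.82 in replicate 2), 47.8 kb upstream (6.27 and 5.46) and 25.5 kb upstream (5.94 and 4.66). The site nearest to Mirlet7c-2, 512 bp from its start, had 3.80 and 2.63. For 11 of the 12 sites the start of another annotated gene was nearer, and with all annotated starts 1 site remained with Ppara. The strongest is shown on the plus strand with shared footprints in capitals, and the last of them covers the glucocorticoid-type letters ACANNNTGT at bases 135 to 143.
Ppara upstream site: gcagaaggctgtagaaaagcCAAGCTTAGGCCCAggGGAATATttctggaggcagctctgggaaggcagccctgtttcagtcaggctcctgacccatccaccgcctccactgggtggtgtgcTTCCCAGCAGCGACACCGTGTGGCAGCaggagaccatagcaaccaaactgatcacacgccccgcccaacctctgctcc

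The factors downstream of the coactivators had open promoters. Nrf1 and Gabpa had 1 distal site each, more than 50.8% of genes, and Tfam had 3, more than 79.97%. Nrf1 had 11.4 in replicate 1 and 9.11 in replicate 2 at its main start (chr6:30047901-30048140), above 63.4% of open promoters, and 2.37 and 2.67 at a site in an intron, 560 bp downstream of the nearest start. Its other 4 groups of starts had no peak in either list of either library. A single distal site 21.1 kb upstream had 0.502 and 0.744, the weakest mean signal among the 68 sites, although 158 kb of sequence was nearest to the starts of Nrf1.

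Gabpa shares its promoter region with Atp5j, a subunit gene of the ATP synthase that is transcribed the other way. The 4 promoter sites of Gabpa, all within 1 kb of an Atp5j start too, had 10.3, 5.60, 6.93 and 1.22 in replicate 1 and 8.41, 6.14, 6.99 and 1.22 in replicate 2, in order from its own start. Signal at these sites cannot be assigned to one gene or the other. The 3 internal groups of starts had no peak in either list, and the only distal site had 1.60 and 1.48.

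Tfam had the strongest promoter of this group, with 13.5 in replicate 1 and 14.7 in replicate 2 at chr10:71238041-71238220, above 78.1% of open promoters. The site had 4 shared footprints, and one of them overlaps a match to the GABP core CCGGAAGT, which 4.98% of all promoter sites hold. A further promoter site, at an alternative start, had 1.35 and 0.851 and no footprint in either library. Of all GABP core matches in promoter sites, 50.6% overlapped a shared footprint. The Gabpa promoter itself holds the same letters outside any footprint. The Tfam match is shown in capitals on the gene's strand (chr10:71238073-71238102), within 30 bases of what GENCODE annotates as first-exon sequence.
Tfam: cctgccgcggaCCGGAAGTccgggcttccc

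The 3 distal sites of Tfam are all downstream of its starts, and their distances are to the nearest one, an internal start of a non-coding transcript that had no peak itself. The strongest, 9.23 kb away in the exon of its 3′ UTR, had 4.48 in replicate 1 and 4.92 in replicate 2, the next, 16.9 kb away, 3.28 and 3.18, and the last, 25.2 kb away, 1.09 and 1.00. The last 2 lie nearer to the start of the non-coding gene 1700113B09Rik.

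Among the 10 promoters, the order of signal was Esrra, Ppard, Tfam, Nrf1, Ppara, Gabpa, Ppargc1b, Esrrg, Esrrb and Ppargc1a by the mean of both libraries. The ranges of Nrf1, Ppara and Gabpa overlapped, as did those of Esrrg and Esrrb, so these are not ordered beyond the gap between libraries. The other neighbours in the order did not overlap. The last places depend on the annotation: within 1 kb of any RefSeq start the strongest peak was 3.58 and 2.47 for Ppargc1a and 3.96 and 2.74 for Esrrb, in replicates 1 and 2, while Esrrg stayed at 1.03 and 1.62.

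**Figure D2:**
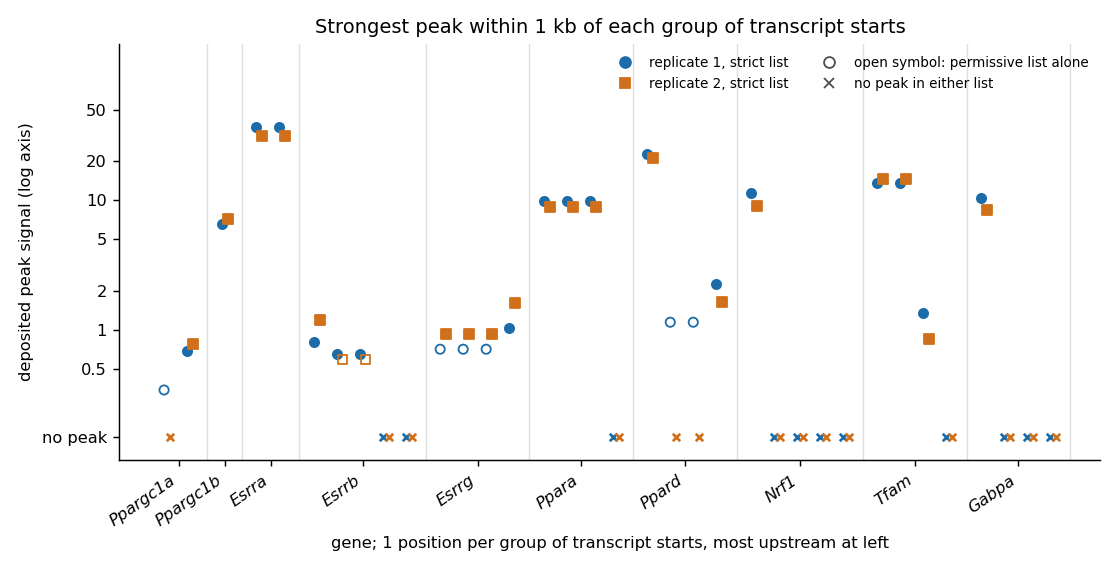
Strongest deposited peak signal within 1 kb (vertical log axis) of each of the 35 groups of transcript starts, by gene (horizontal axis), with circles for replicate 1 and squares for replicate 2; filled symbols are strict peaks, open ones permissive peaks alone, and crosses mark groups without a peak in either list. Nrf1, Gabpa and Esrrb have several starts without any peak, and neighbouring groups of Esrra, Ppara and Tfam show the same peak more than once.

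Taking the alternative starts apart, the 69 annotated transcripts of the 10 genes have 62 distinct starts, which form 35 groups when starts within 200 bp are joined. Of these groups 16 had a shared site within 1 kb, beside 38.6% of all groups. The 16 are not independent, since 1 peak can lie near several groups, and 13 groups were the nearest to a site. In 14 groups neither library had a strict peak, and in 5 only 1 library had one. Of the 14, 11 had no permissive peak either, and they belong to Esrrb, Ppara, Nrf1, Tfam and Gabpa.

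The 49 distal sites of the 10 genes amount to a median of 4 per gene, beside a median of 0 per protein-coding gene, and 9 of the 10 genes had at least 1, beside 49.2% of all genes. Their density over the sequence nearest to their starts was 4.54 per 100 kb, beside 2.62 for all protein-coding genes. It was highest at Ppara (11.8), Ppargc1b (11.2) and Ppard (8.33) and lowest, after Esrra, at Nrf1 (0.633), Esrrg (1.53) and Gabpa (1.67). The median of the mean signal was 2.06 at these distal sites and 1.55 at all distal sites. Of the 49 sites 27 are in introns, 20 are intergenic, 1 is in a coding exon and 1 in a UTR exon.

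Footprints called in both libraries were found at 14 of the 19 promoter sites, beside 82.6% of all promoter sites, and at 45 of the 49 distal sites, beside 91.1% of all distal sites. The 9 sites without one all had a mean signal of at most 2.72, and each of the 28 stronger sites had at least 1. The same dependence on signal holds over all sites: a shared footprint was present at 41.7% of promoter sites with a mean signal under 1 and at 99.98% of those at 8 and over. The promoters of Ppargc1a and Esrrg, both without a shared footprint, are in the weak part of that range, and nothing is read from the missing footprints there.

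**Figure D3:**
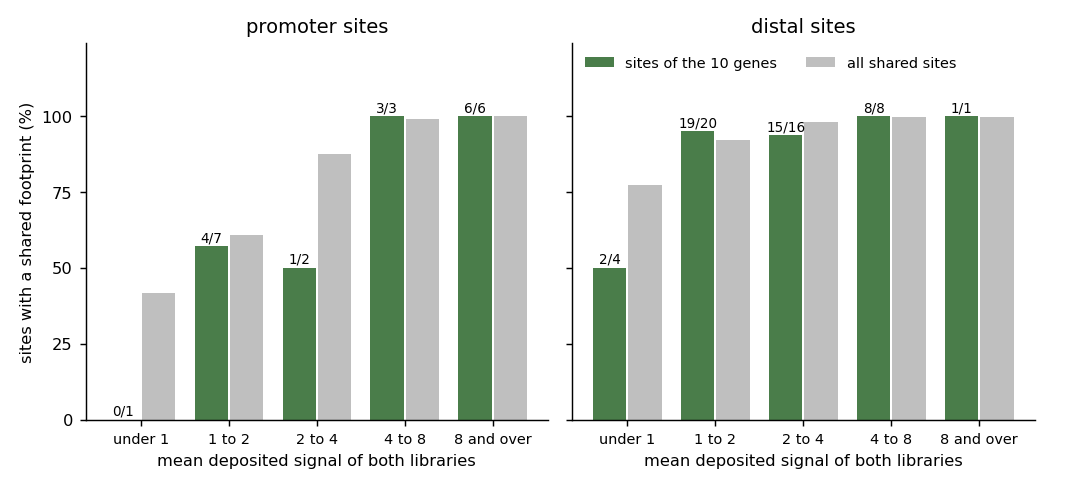
Share of sites with a shared footprint in percent (vertical axis) by the mean deposited signal of both libraries (horizontal axis), for promoter sites (left) and distal sites (right), with the 10 genes in green beside all shared sites in grey; fractions above the green bars give sites with a shared footprint over sites in that class. Below a signal of 1 the 10 genes have 0 of 1 promoter sites and 2 of 4 distal sites with one, and from 4 up all have one.

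Exact matches to 14 motifs were sought in the 300 bp around each site's midpoint, on both strands. Of 72 matches in these windows at the sites of the 10 genes 23 overlapped a shared footprint (31.9%), beside 29.2% of matches at all shared sites. Some of the 72 lie beyond the edges of the site. The MyoD-type E-box was the most frequent at distal sites, in the windows of 19 of 49 (38.8%) beside 34.7% of all distal sites. Of its 30 matches there, some of them outside the site, 5 overlapped a shared footprint, where 19.4% did over all distal sites. The AP-1 letters TGANTCA were in 3 of 49 (6.12%), beside 12.9% of all distal sites. The glucocorticoid-type letters were in 2 of 49 (4.08%), beside 8.90% of all distal sites.

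Of the 14 motifs, that of CTCF, the insulator protein, had the highest share of matches in shared footprints over all distal sites. Its core was matched in 5 distal sites of the 10 genes (10.2%, beside 9.004% of all distal sites). All 5 matches overlapped a shared footprint, as did 96.2% over all distal sites. They belong to Tfam, Ppara (2 sites), Esrrb and Ppargc1b. The first 4 are aligned on the core, in capitals, with 9 bases to each side, on the strand of the match. The cores line up because the matches were found by these letters, and similarity of the flanks was not tested.
Tfam: cgcactggaCCACCAGGGGGCgctgaaacc
Ppara, 25.5 kb upstream: ttagattagCCAGCAGGTGGCagcagaagg
Ppara, 18.8 kb upstream: ttgtcctgtCCACCAGGTGGCgccctgcac
Esrrb: gtctgtgcgCCACCAGAGGGCgcgctgggt

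The Tfam match (chr10:71226077-71226106, minus strand) is in the exon of the 3′ UTR, at the site 9.23 kb downstream of the internal start with 4.48 in replicate 1 and 4.92 in replicate 2. The Ppara matches (chr15:85709506-85709535, minus strand, and chr15:85716193-85716222, plus strand) are on opposite strands, and lie between the let-7 genes and Ppara. Their sites had 5.94 and 4.66, and 3.46 and 3.80. The Esrrb match (chr12:86402918-86402947, minus strand) is in an intron, at a site with 3.49 and 3.19.

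Agreement of the libraries was read from their signal. The log2 signal ratio of replicate 1 over replicate 2, centred on its median of 0.14 over all shared sites, stayed within 0.79 of 0 at all 68 sites, and none passed 1. The largest value, -0.79 at the Esrrg promoter, was reached or passed in size by 1.51% of all shared sites. The median size was 0.25 at the 68 sites and 0.18 at all sites, whose SD was 0.30. Before centring, replicate 1 had the higher signal at 39 of the 49 distal sites (79.6%) and at 9 of the 19 promoter sites (47.4%), beside 69.3% of all sites, promoter and distal together. The share was not taken for each class over all sites, so the split is not read as particular to these genes. The label of replicate 2 names 2 sequencing instruments and that of replicate 1 none, and effects of sequencing and of the biological replicate therefore cannot be told apart.

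**Figure D4:**
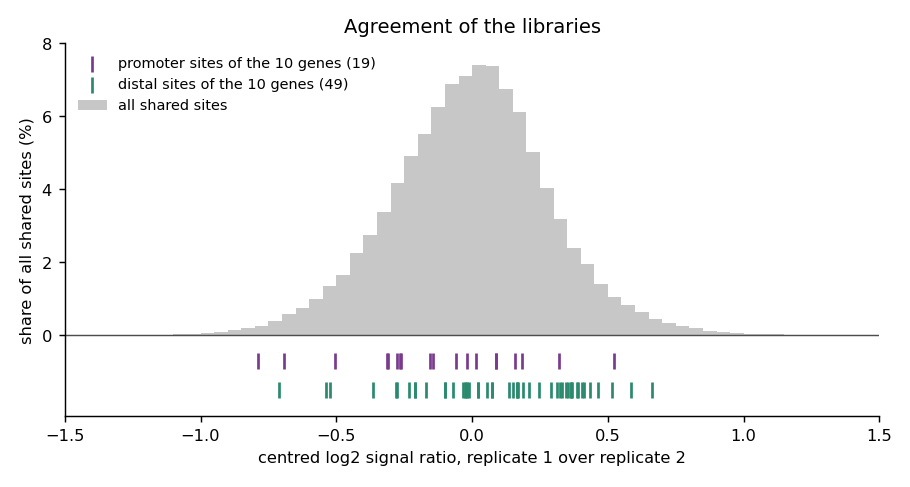
Centred log2 signal ratio of replicate 1 over replicate 2 (horizontal axis), as the share of all shared sites in percent per bin of the histogram (vertical axis, grey, values past the ends gathered in the last bins), with the 19 promoter and 49 distal sites of the 10 genes as ticks below the zero line. All ticks lie between -0.79 and 0.66.

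Around the 10 genes, 5 lists of their partners and targets, together 95 genes, were read in the same way. A shared promoter site was present at 89 of them, beside 63.7% of all protein-coding genes. The median promoter signal of all protein-coding genes, closed ones included, was 2.94.

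All 21 cofactors and partners had an open promoter, with a median signal of 8.65. The strongest were Ncoa2, a p160 coactivator (26.5 in replicate 1 and 21.3 in replicate 2), and Rxrb, a retinoid X receptor with which PPARs pair (22.03 and 19.3). Of the upstream kinases and inputs 20 of 21 were open, with a median of 10.9, led by Ppp3ca, the catalytic subunit of calcineurin (32.1 and 26.3), and Mapk14, the p38α kinase (30.8 and 21.7). Prkag2, a subunit of AMP-activated kinase, had 17 distal sites. Mapk11, another p38 kinase, had no strict promoter peak, but a permissive one of 1.03 in replicate 1 and 0.811 in replicate 2.

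Of the genes for mitochondrial DNA transcription and replication 11 of 12 were open, with a median of 9.45. Tfb2m, the transcription factor that works with Tfam, had 20.2 and 16.3, and Polg, the mitochondrial DNA polymerase, had 19.03 and 16.01 and the most distal sites of the list, 2. Mterf1a had no strict promoter peak, but a permissive one of 0.304 in replicate 1 and 0.253 in replicate 2. Among targets of the ERRs, NRFs and PGC-1, 21 of 22 were open, with a median of 10.04. The strongest were Mdh2, the mitochondrial malate dehydrogenase (31.8 and 26.7), and Sod2, the mitochondrial superoxide dismutase (25.6 and 23.8). Cox4i1, a cytochrome oxidase subunit gene, had 10 distal sites, and Fndc5, which encodes the irisin precursor, had no strict promoter peak but 2 distal sites. At the Fndc5 promoter the permissive list held a peak of 0.791 in replicate 1 and 0.778 in replicate 2.

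The PPAR targets were the least open list, with 16 of 19 and a median of 3.90. Acadm, the medium-chain acyl-CoA dehydrogenase, had 22.4 and 18.0. Lpl, the lipoprotein lipase, had 2.19 and 2.07 and 8 distal sites. The 3 without a strict promoter peak were Cd36, the fatty acid transporter, and the hepatic hydroxylases Cyp4a10 and Cyp4a14, and for Cd36 the permissive list held a peak of 0.530 in replicate 1 and 0.505 in replicate 2.

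The labelled tissue was checked against marker genes. All 8 fibre markers had a shared promoter site, from Ckm (13.1 in replicate 1 and 8.99 in replicate 2) to Tnnt3 (3.32 and 2.59). Fibroblast and endothelial markers had one at 3 of 3 each, satellite cell markers at 2 of 3 and adipocyte markers at 1 of 4, beside 63.7% of all protein-coding genes. The part of other cell types in the values of the 10 genes was not tested. None of the 3 macrophage, 3 cardiac, 3 hepatocyte or 3 pluripotency markers had a shared promoter site. Some of them had shared distal sites, among them Nanog with 4 and Ttr with 3.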

How the data were processed

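DNase-seq was read from 2 libraries of 1 group, the gastrocnemius of B6CASTF1/J females. Per the file headers and labels, the mm10 files of each library (peaks in 2 lists, footprints, per-base values) were made from its own alignments. The peak signal is the authors' deposited value per peak, of unstated scaling. The deposited per-base file gives the FDR (a q-value) of the local cut rate, listed only below 0.05, and the deposited footprints carry 1 level, 0.01. Of the aligner, callers and read depth, nothing is given in the sources used here, and precision from depth is unknown, and alleles of the F1 cross are not separated.

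The list with fewer rows per library was taken as strict (87558 peaks in replicate 1 and 79562 in replicate 2) and the longer one as permissive (142031 and 133321). Strict peaks of both libraries that overlapped by at least 1 bp were merged, which gave 68349 shared sites, 23649 of them promoter sites and 44700 distal. Starts were those of GENCODE vM21 transcripts of 21911 protein-coding symbols outside the mitochondrial genome, joined within 200 bp. Motifs were exact matches, and a match or site counted as footprinted if at least 1 base lay in a footprint of each library. Site assignment was tested on simulated data. Python 3.11.15 with numpy 2.4.6, bedtools 2.31.1 and matplotlib 3.10.9 was used. No test was made between conditions. The 10 genes, the lists, motifs and alternatives were chosen with earlier results of these data known. Of each list, the text names the top 2 by promoter signal averaged over libraries, the 1 with most distal sites and up to 3 lacking any strict promoter peak, and per gene the 3 strongest distal sites. Of the genes this rule names, 2 are not reported here. Both libraries count as replicates because the labels number them so.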

Additional observations from a re-analysis of the deposited data

How the results depend on the processing

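All 10 genes kept a shared promoter site with windows of 500 and 2500 bp, the permissive list, 50% reciprocal overlap, either library alone and RefSeq starts, an alternative added after seeing the data. For the 2500 bp window, the permissive list and either library alone this was nearly given in advance, because a strict site of both libraries stays in them. With the stronger 50% of peaks 7 did, without Ppargc1a, Esrrb and Esrrg. The count of 49 distal sites changed most: 79 with the permissive list, 29 with the stronger 50% of peaks, 26 within 20 kb and 20 with the starts of all annotated genes. With every distinct start taken apart 40 of 62 starts had a shared site, in place of 16 of 35 groups. The same counts over all genes are not given at these settings, so none of them is read as particular to the 10 genes. Of sites, 86.8% had a shared footprint, 95.2% with the stronger 50% of peaks and 78.3% with the permissive list. A whole motif match lay inside a shared footprint in 16.7% of matches, against 31.9% with any overlap. With 1 library left out, counts ran from 18 to 19 start groups and from 54 to 66 distal sites, footprinted sites from 92.2% to 93.5%, footprinted matches from 34.7% to 36.1% and the median promoter signal from 8.68 to 10.2. There a footprint of the library kept was enough, a looser measure than that behind 86.8% and 31.9%. No paired analysis was possible because there is 1 group. Read depth is unknown, so weak promoters such as that of Ppargc1a are described by signal alone.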

Other observations

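RefSeq lists starts of Ppargc1a that GENCODE vM21 lacks. The farthest, 547730 bp and 548127 bp upstream of the nearest GENCODE start, share a strict peak within 1 kb, at 3.58 in replicate 1 and 2.47 in replicate 2, above 0.692 and 0.778 at the proximal promoter. A further RefSeq start 136666 bp upstream had no peak in either list. RefSeq starts 776 bp downstream of the nearest GENCODE start are near the intron site described above, with 2.46 and 2.12. An Esrrb start of RefSeq alone, 13034 bp from a GENCODE start, is near the site with 3.96 and 2.74. Esrrg starts of RefSeq alone, 42062 bp and 42386 bp from a GENCODE start, are near its distal site with 0.756 and 0.804. These starts were looked up after the values were seen.

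Sites beyond the 50 kb limit also lay in or near these genes. Inside Esrrg 11 shared sites are farther than 50 kb from any start, and the strongest, 120 kb away, had 4.36 in replicate 1 and 3.96 in replicate 2, above the 1.03 and 1.62 of its promoter. Inside Ppargc1b 2 such sites had 4.15 and 4.05, and 3.74 and 3.67. Upstream of Ppara, 6 more sites lie between 50.6 kb and 65.1 kb away, nearest to it among protein-coding genes. All of them are inside Lncppara, whose start is nearer. The strongest, 63.8 kb from Ppara, had 8.09 and 7.65, more than any Ppara site within the limit except the promoter. Nrf1 had a site 62.7 kb upstream with 6.51 and 5.29, against 0.502 and 0.744 at its only distal site within the limit.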
